A study of Mus musculus with 8 samples.

Results

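The 10 genes described here encode linker histones, the main replacement histones and an H2B of the Hist1 cluster: Hist1h1c, H1f0, H1fx, Hist1h2bc, H2afz, H2afx, H2afv, H2afy, H3f3a and H3f3b. They were taken by symbol from the 26589 genes of the deposited table, through the Ensembl identifier that the GENCODE M21 annotation pairs with each name, and all 10 were found. The set was selected on gene family with the FPKM differences between these same libraries already known, so the differences of its genes between groups are given as a description, without p-values. The study compared 4 bulk RNA-seq libraries of IL-10+ B cells with 4 of IL-10- B cells from the spleens of IL-10-eGFP Tiger mice, whose cells make green fluorescent protein from a reporter at Il10. All 8 libraries come from purified B cells that received 3 µg/ml lipopolysaccharide (LPS), a bacterial activator of B cells through Toll-like receptor 4, for 48 h, and were then sorted on the reporter. No treatment separates the groups, and the age of the mice and the number pooled per library are not given in the labels. The labels number the libraries 1 to 4 within each group without saying whether a number is a mouse or a culture, so p-values cover only the variation among these samples, part of which may be technical.

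Histones package DNA into nucleosomes, and linker histone H1 binds where the DNA enters and leaves a nucleosome. Most histone genes lie in the Hist clusters and are transcribed with DNA replication. Their messages end in a stem-loop instead of a poly(A) tail, and the stem-loop binding protein SLBP and the U7 small nuclear ribonucleoprotein direct the cut behind it. Replacement histones such as H3.3 and H2A.Z come from genes outside these clusters, carry poly(A) tails and are placed into chromatin through the whole cell cycle. Some cluster genes can also end downstream of the stem-loop in a poly(A) tail, and in other cell types this form is known to accumulate when cells stop dividing. A B cell that becomes an antibody-secreting plasmablast divides rapidly before it leaves the cycle.

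The stem-loop is shown because most messages of the Hist clusters end in it. The consensus of the histone stem-loop, a 16-base pattern with GG from base 1, CTT from base 5, T at base 9, A at base 11, GCC from base 14 and any base elsewhere, was looked for on the sense strand in the protein-coding transcripts of GENCODE M21 (GRCm38). It occurred in 2 of the 10 genes, Hist1h1c and H2afx, in 40 of the 56 other Hist genes of the table (71.4%), and in 78 of 21835 other protein-coding genes (0.357%). Some Hist genes without a match have short annotated transcripts, such as 381 bases for Hist1h2bl, an H2B gene. In the H2B gene Hist1h2bk the element begins at base 431. An element beyond an annotated end could not be found, so the share of Hist genes is a lower bound. The capitals mark the 16 bases, with 5 bases on each side.
Hist1h1c: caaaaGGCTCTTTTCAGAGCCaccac
H2afx: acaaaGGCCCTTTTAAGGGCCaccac
Hist1h2bg: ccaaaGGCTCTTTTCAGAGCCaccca
Hist1h4i: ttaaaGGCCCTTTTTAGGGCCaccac
These lie at chr13:23739507-23739532, chr9:44335235-44335260, chr13:23571838-23571863 and, on the minus strand, chr13:22040961-22040986 of GRCm38. Hist1h2bg and Hist1h4i, both cluster genes outside the set, are shown for comparison. Counted from the first capital, the H2afx element has the substitutions T4C, C10A and A13G against that of Hist1h1c, and the Hist1h4i element has T4C, C10T and A13G. The element of Hist1h2bg has 0 substitutions against that of Hist1h1c.

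In Hist1h1c 840 bases of the annotated transcript follow the stem-loop, and in H2afx 822 bases do. The median over the 40 other Hist genes with the element is 91 bases, and 15 of them have at least 200. Both Hist1h1c and H2afx have a poly(A) signal (AATAAA or ATTAAA) in the last 50 bases of the annotated transcript, and so do H1f0, H1fx, and at least 1 protein-coding transcript each of H2afz, H2afv, H3f3a and H3f3b. Neither the stem-loop letters nor that signal were found in the protein-coding transcripts searched for Hist1h2bc and H2afy, and other transcript types were not searched. A poly(A) signal was thus seen for 8 of the 10 genes. For Hist1h2bc and H2afy this search neither bore out nor contradicted the name polyadenylated, since annotated transcripts may stop short of the message end. The H2afy transcripts searched had 2046 and 1933 bases, against an exonic length of 6809 bases. The sources used here do not give whether poly(A) RNA was selected for the libraries. Levels of messages without a poly(A) tail depend on that step.

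Library totals recovered from the deposited values lay between 27380398 and 29968285 reads. The values are FPKM, reads scaled by gene length and library total, and 1 read in 1 kb was worth 0.0334 to 0.0365 FPKM. Il10 itself had a mean of 36.9 ± 5.32 FPKM in IL-10+ libraries, against 3.17 ± 1.48 FPKM in IL-10- libraries (SD, n = 4 each). The 5 B cell markers summed to 1157 to 1450 FPKM in IL-10+ libraries and to 1252 to 1682 FPKM in IL-10- libraries. Summed T cell, myeloid and NK cell markers stayed at or below 2.21 FPKM in every IL-10+ library and at or below 2.52 FPKM in every IL-10- library. Erythroid markers summed to 0.696 to 1.02 FPKM in IL-10+ libraries, against 1.99 to 3.01 FPKM in IL-10- libraries, and among them Hbb-bt, a β-globin gene, fell (log2 change -0.87, limma adjusted p = 0.0014). The groups also differed in B cell state. Immunoglobulin genes held 13.2% to 16.8% of all FPKM in IL-10+ libraries and 3.73% to 4.73% in IL-10- libraries, and 7 plasmablast genes summed to 1331 to 1357 FPKM in IL-10+ libraries, against 314.9 to 441.8 FPKM in IL-10- libraries. The part of these differences in the histone values was not tested, and in bulk RNA fewer cells of a type and less RNA per cell cannot be told apart.

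The 10 genes covered a wide range of levels. H2afz, which encodes the H2A.Z.1 variant, ranked first and H3f3b second in all 8 libraries. Hist1h2bc and H1fx were the lowest in all 8. Of the 10 genes 9 reached at least 1 FPKM in at least 4 libraries and entered the fit across 11329 genes, and H1fx did not. Past the threshold of that fit (limma on log2(FPKM + 1), Benjamini-Hochberg adjusted p under 0.05) lay 5 of the 9, against 19.7% of all tested genes. Hist1h1c, H1f0 and Hist1h2bc were higher in IL-10+ cells, where 10.6% of all genes were called higher. H2afy and H3f3a were lower, where 9.18% of all genes were called lower. With the replicate number as a block 6 of the 9 lay past the threshold, H2afx being added as higher, where 53.7% of all tested genes were called (20.4% higher and 33.3% lower). The groups did not overlap in the 5 genes past the threshold without the block, where 25.2% of all tested genes did not overlap. The median log2 change over the 9 genes was 0.04, beside -0.06 over all tested genes.

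**Figure D1:**
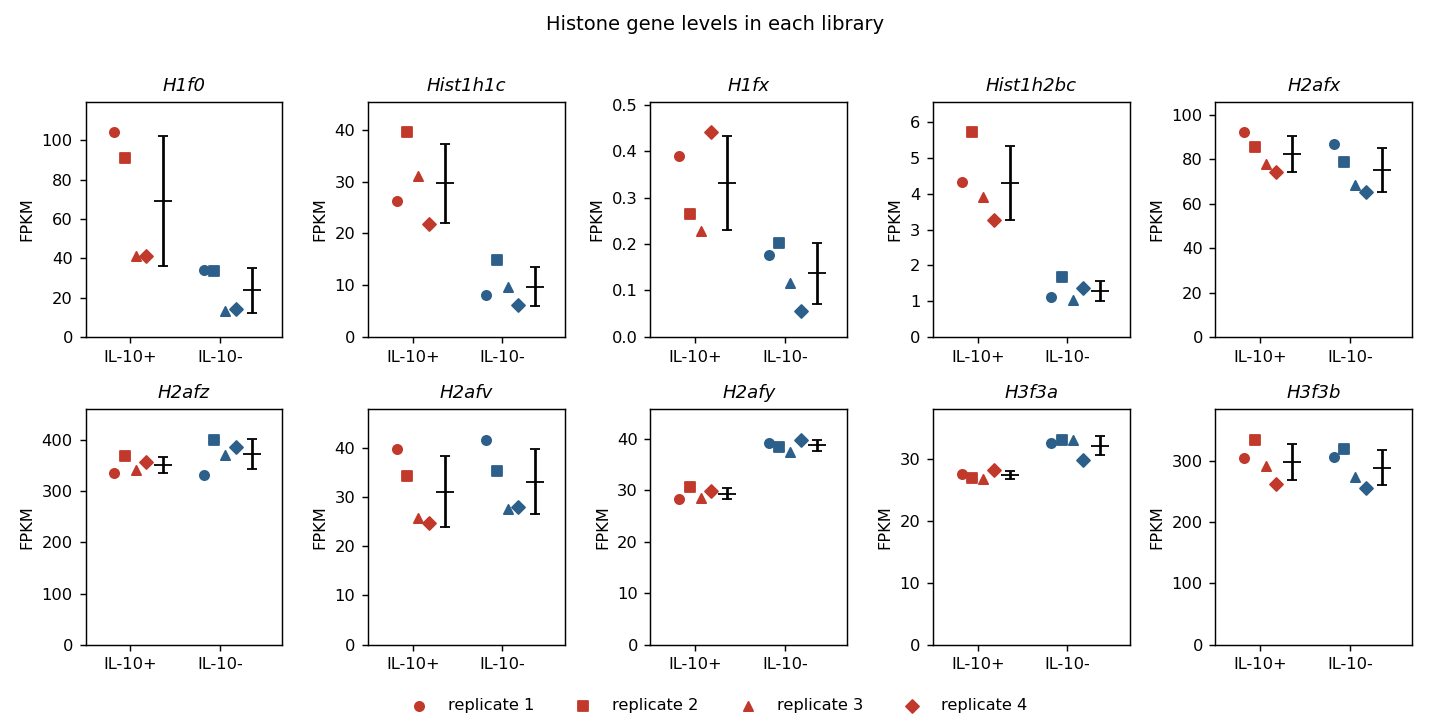
FPKM of the 10 histone genes in each library, with IL-10+ libraries in red on the left and IL-10- libraries in blue on the right of each panel. The marker shape gives the replicate number, bars give the mean ± SD (n = 4), and each panel has its own axis from 0. Groups do not overlap for H1f0, Hist1h1c, H1fx, Hist1h2bc, H2afy and H3f3a.

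The linker histone genes H1f0 and Hist1h1c had the highest log2 changes of the 9 tested genes. H1f0 encodes H1.0, a replacement linker histone known to accumulate in cells that stop dividing and differentiate. It is a gene without introns at chr15:79028450-79030504 of GRCm38 on the plus strand, overlapped on the other strand by the antisense gene Gm49544. Without a stated strand setting the reads of these genes cannot be told apart. The deposited H1f0 values gave no whole reads at this annotated length of 2055 bases. The gene model behind them may differ, so the level of H1f0 and its share of H1 FPKM below are uncertain. H1f0 had 104.1, 91.1, 41.0 and 41.1 FPKM in IL-10+ libraries 1 to 4, against 33.8, 33.6, 13.2 and 14.3 FPKM in IL-10- libraries 1 to 4. Every IL-10+ library was above every IL-10- library, yet the lowest IL-10+ value lay close to the highest IL-10- value, with libraries 1 and 2 high and 3 and 4 low in both groups. The group means were 69.3 ± 33.1 FPKM in IL-10+ libraries, against 23.7 ± 11.6 FPKM in IL-10- libraries (SD, n = 4), a ratio of 2.92. The log2 change of FPKM + 1 was 1.51 (SE 0.427), and by replicate number it was 1.41 to 1.59. Within replicates 1 and 2 the ratio of the means was 2.89, and within replicates 3 and 4 it was 2.99.

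The drop between the replicate sets of H1f0 was nearly as large as the difference between the groups. Libraries 1 and 2 averaged 2.38 times libraries 3 and 4 in IL-10+ cells and 2.46 times in IL-10- cells. On the log2 scale this set difference was 1.23, and it was smaller in absolute size in 99.5% of the tested genes, whose median was 0.17. This spread enters the error of the unpaired fit. H1f0 missed the threshold in 5 of 19 alternatives, namely with no filter on low values and without IL-10+ library 1, IL-10+ library 2, IL-10- library 3 or IL-10- library 4. With the replicate number as a block the SE was 0.04 in place of 0.43, and H1f0 was past the threshold.

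Hist1h1c encodes the linker histone H1.2, a member of the H1 family in the Hist1 cluster for which a poly(A) form beside the stem-loop form is known. It has a single exon at chr13:23738808-23740367 of GRCm38 on the plus strand. Hist1h1c had 26.3, 39.6, 31.0 and 21.9 FPKM in IL-10+ libraries 1 to 4, against 8.01, 14.9, 9.72 and 6.16 FPKM in IL-10- libraries 1 to 4. Replicate 2 was the highest and replicate 4 the lowest in both groups, and the groups did not overlap. The means were 29.7 ± 7.58 FPKM in IL-10+ libraries, against 9.69 ± 3.74 FPKM in IL-10- libraries (SD, n = 4), a ratio of 3.06, from 954 to 1726 recovered reads in IL-10+ and 288 to 661 in IL-10- libraries. The log2 change was 1.55 (SE 0.256), and by replicate number it was 1.35 to 1.67. Of 19 alternatives, Hist1h1c missed the threshold in 1, within replicates 1 and 2 alone.

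H1fx, which encodes the replacement linker histone H1x, was the lowest of the set. Its single exon lies at chr6:87980421-87981637 of GRCm38 on the minus strand, where the antisense gene Gm5577 overlaps it. H1fx had 0.390, 0.264, 0.228 and 0.440 FPKM in IL-10+ libraries 1 to 4, against 0.176, 0.202, 0.117 and 0.0548 FPKM in IL-10- libraries 1 to 4. These values rest on 13, 9, 8 and 15 recovered reads in IL-10+ libraries, against 6, 7, 4 and 2 reads in IL-10- libraries. The groups did not overlap, but at this depth a few reads set the ratio, and the gene stayed below the filter.

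Together the 7 somatic H1 genes summed to 107.6 ± 42.9 FPKM in IL-10+ libraries and 41.5 ± 20.2 FPKM in IL-10- libraries (SD, n = 4), with overlap between the groups. By library the sum was 139.0, 149.7, 76.8 and 64.8 FPKM in IL-10+ libraries 1 to 4, against 49.8, 66.0, 27.9 and 22.2 FPKM in IL-10- libraries 1 to 4, and it was 2.27 to 2.92 times higher in the IL-10+ library of all 4 numbers. H1f0 made up 63.1% ± 8.92 of this sum in IL-10+ cells and 57.5% ± 10.1 in IL-10- cells, and Hist1h1c made up 29.9% ± 9.25 in IL-10+ cells and 25.3% ± 7.94 in IL-10- cells (SD, n = 4). Both shares overlapped between the groups. Within the replicate numbers the Hist1h1c share was higher in the IL-10+ library in 4 of 4 and the H1f0 share in 3 of 4. The other H1 genes were low. Hist1h1a (H1.1) averaged 3.01 and 3.48 FPKM in IL-10+ and IL-10- cells, and in the same order of groups Hist1h1b (H1.5) averaged 3.39 and 2.98, Hist1h1e (H1.4) 1.51 and 1.22, and Hist1h1d (H1.3) 0.349 and 0.269 FPKM. None of Hist1h1a, Hist1h1b and Hist1h1e passed the test (limma adjusted p 0.86 to 0.95), and Hist1h1d was below the filter. With the replicate number as a block Hist1h1a fell (log2 change -0.19, adjusted p = 0.0391), while Hist1h1b and Hist1h1e did not pass.

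**Figure D2:**
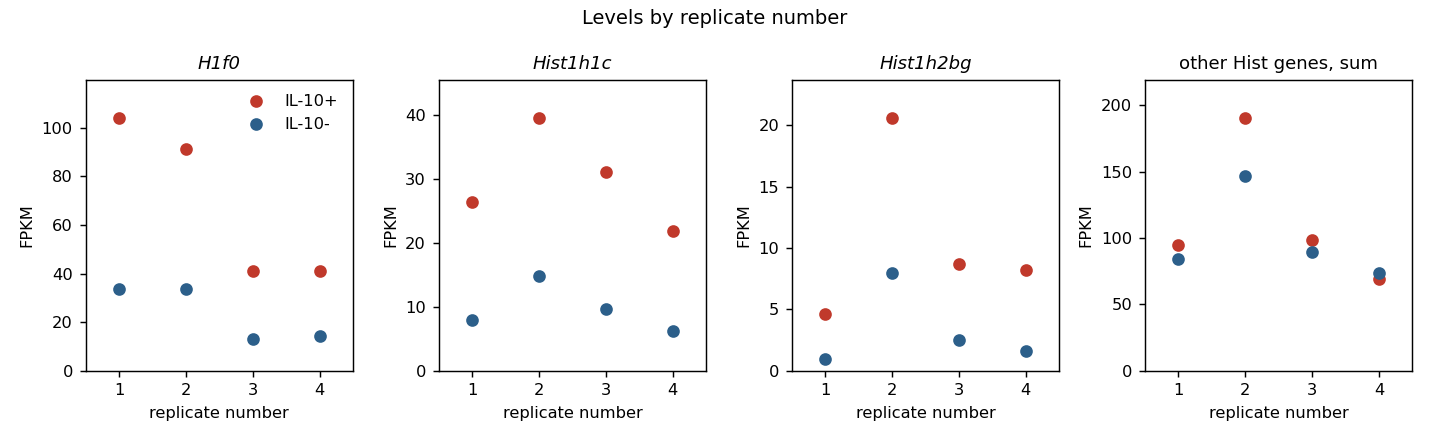
FPKM by replicate number for H1f0, Hist1h1c, Hist1h2bg and the sum over the 56 other Hist genes, with IL-10+ libraries in red and IL-10- libraries in blue. H1f0 is high in numbers 1 and 2 of both groups, and the other 3 panels peak at number 2 in both groups.

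The promoters of H1f0 and Hist1h1c are shown because these linker genes had like log2 changes. The windows are from RefSeq on GRCm38.p6, 250 bases before to 50 bases after the start, and 8 of the 10 genes had an entry. Capitals mark any of 4 motifs searched on both strands: the CCAAT box (CCAAT), the octamer ATTTGCAT, the TATA box (TATAAA) and the H1 box (AAACACA), a motif known from H1 gene promoters. Of 32851 windows 37.4% hold the CCAAT letters, 1.74% the octamer, 13.6% TATAAA and 7.18% the H1 box, and overlaps between motifs were allowed.
Hist1h1c: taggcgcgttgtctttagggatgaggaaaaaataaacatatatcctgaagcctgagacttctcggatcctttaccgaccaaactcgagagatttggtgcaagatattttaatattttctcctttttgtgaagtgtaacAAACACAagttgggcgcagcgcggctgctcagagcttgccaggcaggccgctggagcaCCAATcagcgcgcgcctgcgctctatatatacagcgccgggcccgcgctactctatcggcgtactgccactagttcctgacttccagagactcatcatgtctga
H1f0: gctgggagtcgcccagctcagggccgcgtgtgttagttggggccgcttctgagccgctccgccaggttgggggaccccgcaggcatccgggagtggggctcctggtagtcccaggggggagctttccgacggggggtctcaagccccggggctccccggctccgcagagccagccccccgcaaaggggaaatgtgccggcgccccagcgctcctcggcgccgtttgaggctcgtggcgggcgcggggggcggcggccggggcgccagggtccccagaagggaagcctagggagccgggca
The Hist1h1c window, at chr13:23738557-23738856 on the plus strand, holds an H1 box letter run that begins 112 bases before the start and a CCAAT box that begins 54 bases before it. The H1f0 window, at chr15:79027962-79028261 on the plus strand, holds 0 matches to the 4 motifs. Its GC content is 75.0%, against 50.3% in the Hist1h1c window. The H1f0 window ends before the GENCODE start of H1f0 given above, so its RefSeq start differs from that start. The bases between the window and the GENCODE start were not searched for the motifs. In the 53 windows of other Hist genes the CCAAT letters were found in 83.0%, the octamer in 20.8%, TATAAA in 58.5% and the H1 box letters in 11.3%. Letters that are absent from a window say nothing of the factor.

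Hist1h2bc encodes a core histone H2B in the Hist1 cluster. It has 2 exon blocks at chr13:23684199-23692908 of GRCm38 on the plus strand, and H2B genes have near-identical coding sequences, so reads shared between them make its level uncertain. Hist1h2bc had 4.33, 5.72, 3.93 and 3.28 FPKM in IL-10+ libraries 1 to 4, against 1.11, 1.67, 1.04 and 1.36 FPKM in IL-10- libraries 1 to 4. The groups did not overlap, and replicate 2 was the highest in both. The means were 4.31 ± 1.04 FPKM in IL-10+ libraries, against 1.30 ± 0.283 FPKM in IL-10- libraries (SD, n = 4), a ratio of 3.33, from 106 to 185 recovered reads in IL-10+ and 34 to 55 in IL-10- libraries. The log2 change was 1.20 (SE 0.147), which the pseudocount of 1 holds down, since a pseudocount of 0.1 gave 1.65. By replicate number it was 0.86 to 1.33. Hist1h2bc was past the threshold in all 18 alternatives in which it was tested.

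The other 56 Hist genes of the table gave no call in either direction in the fit across 11329 genes without the replicate block. At a median of 0.628 FPKM over the 56, most lay below the filter, and 22 were tested. None passed the limma test at an adjusted p under 0.05. At an unadjusted p under 0.05 Hist1h2bg and Hist1h4k were higher and Hist2h2be was lower. With the replicate number as a block 3 rose (Hist1h2bg, Hist1h4i and Hist3h2ba) and 3 fell (Hist1h1a, Hist1h3h and Hist2h2be), against 53.7% of all tested genes called in that fit. The median log2 change over the 22 was 0.04. Summed over all 56, the level was 94.5, 190.7, 98.3 and 69.3 FPKM in IL-10+ libraries 1 to 4, against 83.9, 147.1, 89.2 and 73.8 FPKM in IL-10- libraries 1 to 4. The sums of the groups overlapped. Replicate 2 was the highest of the IL-10+ libraries in 21 of the 22 genes, the highest of the IL-10- libraries in 19, and the highest of both in 18.

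The most abundant of these genes were Hist1h4i and Hist1h3c, which encode the core histones H4 and H3. Hist1h4i averaged 32.8 ± 7.05 FPKM in IL-10+ libraries and 27.3 ± 3.77 FPKM in IL-10- libraries (SD, n = 4), with a log2 change of 0.24 (SE 0.159) and a limma adjusted p of 0.338, or 0.026 with the block. Hist1h3c averaged 6.56 ± 3.18 FPKM in IL-10+ libraries, against 7.89 ± 2.16 FPKM in IL-10- libraries (SD, n = 4), with a log2 change of -0.29 (SE 0.277) and an adjusted p of 0.516. Hist1h2bg, an H2B gene of the same cluster, was singled out after its values were seen. Hist1h2bg had 4.61, 20.6, 8.69 and 8.21 FPKM in IL-10+ libraries 1 to 4, against 0.925, 7.95, 2.47 and 1.62 FPKM in IL-10- libraries 1 to 4. Each IL-10+ library was above the IL-10- library of its number, but the groups overlapped. Its log2 change was 1.53 (SE 0.527), close in size to that of Hist1h1c, with a limma adjusted p of 0.0782 without the block and 0.000134 with it. Hist1h2bg carries the stem-loop shown above, with 155 bases behind it, against 330 bases in Hist1h4i.

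The log2 changes of the 4 H2A variants outside the clusters lay between -0.39 and 0.14. H2afz, whose product H2A.Z.1 marks the nucleosomes beside active promoters, had 335.3, 370.2, 343.1 and 358.8 FPKM in IL-10+ libraries 1 to 4, against 333.0, 401.2, 371.2 and 386.7 FPKM in IL-10- libraries 1 to 4. The groups overlapped, with means of 351.9 ± 15.7 FPKM in IL-10+ libraries, against 373.0 ± 29.4 FPKM in IL-10- libraries (SD, n = 4) and a log2 change of -0.08 (SE 0.0743). H2afz lies at chr3:137864487-137866922 of GRCm38 on the plus strand. H2afv, which encodes the paralog H2A.Z.2, had 39.7, 34.3, 25.7 and 24.8 FPKM in IL-10+ libraries 1 to 4, against 41.6, 35.2, 27.6 and 28.1 FPKM in IL-10- libraries 1 to 4. As with H1f0, libraries 1 and 2 were above 3 and 4 in both groups. Its log2 change was -0.09 (SE 0.183). Within the replicate numbers it was lower in the IL-10+ library in 4 of 4 (-0.17 to -0.04), and it did not pass the threshold with the block. With a library left out the unpaired log2 change was -0.22 to 0.02, and its sign turned without IL-10+ library 4 or IL-10- library 1. H2afv lies at chr11:6427229-6444443 on the minus strand. H2afz made up 91.9% ± 1.85 of the summed H2afz and H2afv FPKM in IL-10+ cells and 91.8% ± 2.02 in IL-10- cells (SD, n = 4), so the balance of the H2A.Z paralogs differed by less than the spread between libraries.

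H2afx encodes H2A.X, the variant that is phosphorylated around DNA double-strand breaks, and its single exon lies at chr9:44334694-44336077 of GRCm38 on the plus strand. H2afx had 92.2, 85.7, 78.0 and 74.2 FPKM in IL-10+ libraries 1 to 4, against 87.0, 79.0, 68.5 and 65.4 FPKM in IL-10- libraries 1 to 4. The groups overlapped, although the IL-10+ library was the higher in all 4 replicate numbers. Its log2 change was 0.14 (SE 0.109), with a range of 0.08 to 0.19 over the replicate numbers. H2afx lay past the threshold only with the replicate number as a block, with or without another scaling. It shares the stem-loop and the long annotated tail with Hist1h1c, and its log2 change was smaller by more than 1.

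H2afy encodes macroH2A1, a large H2A variant found on repressed chromatin. It has 13 exon blocks at chr13:56073619-56136361 of GRCm38 on the minus strand. H2afy had 28.4, 30.6, 28.5 and 29.8 FPKM in IL-10+ libraries 1 to 4, against 39.3, 38.5, 37.4 and 39.8 FPKM in IL-10- libraries 1 to 4. The libraries of a group lay close together and the groups were well apart, with means of 29.3 ± 1.08 FPKM in IL-10+ libraries, against 38.8 ± 1.05 FPKM in IL-10- libraries (SD, n = 4) and a ratio of 0.757. The log2 change was -0.39 (SE 0.0563), and within the replicate numbers it was -0.46 to -0.32. H2afy missed the threshold in 1 of 19 alternatives, within replicates 1 and 2 alone. The antisense gene Gm47071, which overlaps H2afy, averaged 1.25 and 1.63 FPKM in IL-10+ and IL-10- cells, and without a stated strand setting their reads cannot be told apart.

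H3f3a and H3f3b encode the same protein, the replacement histone H3.3, and showed different patterns. H3f3b had 304.0, 334.2, 290.7 and 262.8 FPKM in IL-10+ libraries 1 to 4, against 305.7, 319.8, 273.9 and 256.3 FPKM in IL-10- libraries 1 to 4. The groups overlapped almost fully, with a log2 change of 0.04 (SE 0.0989). H3f3b has 4 exon blocks at chr11:116021912-116027962 of GRCm38 on the minus strand. H3f3a had 27.6, 26.8, 26.8 and 28.2 FPKM in IL-10+ libraries 1 to 4, against 32.5, 33.0, 33.0 and 29.8 FPKM in IL-10- libraries 1 to 4. The groups did not overlap, but IL-10- library 4 lay nearer to the IL-10+ libraries than to the rest of its own group. The means were 27.3 ± 0.659 FPKM in IL-10+ libraries, against 32.1 ± 1.55 FPKM in IL-10- libraries (SD, n = 4), a ratio of 0.853, and the log2 change was -0.22 (SE 0.0589). H3f3a missed the threshold in 11 of 19 alternatives, among them 7 of the 8 fits that leave out a library, both other scalings without the block, and both replicate sets on their own.

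H3f3b made up 91.5% ± 0.925 of the summed H3f3a and H3f3b FPKM in IL-10+ cells and 90.0% ± 0.651 in IL-10- cells (SD, n = 4), with overlap between the groups, and the share was higher in the IL-10+ library in 4 of 4 replicate numbers. H3f3a has 6 exon blocks at chr1:180800832-180813943 on the minus strand, with Gm17275 and H3f3aos on the other strand. Its annotated copies had 6.61 and 8.72 FPKM for H3f3a-ps1 and 11.7 and 14.6 FPKM for H3f3a-ps2 in IL-10+ and IL-10- cells. H3f3c, annotated as a processed pseudogene, had 15.7 to 17.5 FPKM in IL-10+ libraries and 16.6 to 20.2 FPKM in IL-10- libraries. Reads could be split between these copies, so the level of H3f3a is uncertain.

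The promoters of H3f3a and H3f3b are shown because these genes give 1 protein and have unlike sequence around their RefSeq starts. The capitals mark the same 4 motifs, in the same RefSeq windows of GRCm38.p6.
H3f3a: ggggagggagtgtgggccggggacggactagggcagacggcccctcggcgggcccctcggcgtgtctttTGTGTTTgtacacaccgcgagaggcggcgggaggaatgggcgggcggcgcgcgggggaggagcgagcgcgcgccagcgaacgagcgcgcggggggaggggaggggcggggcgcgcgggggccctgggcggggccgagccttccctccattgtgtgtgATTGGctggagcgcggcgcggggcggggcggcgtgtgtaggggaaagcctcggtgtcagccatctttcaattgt
H3f3b: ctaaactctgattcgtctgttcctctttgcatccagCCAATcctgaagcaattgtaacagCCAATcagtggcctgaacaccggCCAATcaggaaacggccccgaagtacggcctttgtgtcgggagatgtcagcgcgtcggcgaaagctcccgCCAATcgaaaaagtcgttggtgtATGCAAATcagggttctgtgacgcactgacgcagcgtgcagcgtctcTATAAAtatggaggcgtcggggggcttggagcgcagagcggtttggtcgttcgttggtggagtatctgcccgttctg
The H3f3b window, at chr11:116024455-116024754 on the minus strand, holds 4 CCAAT boxes, the octamer letters on the reverse strand (ATGCAAAT) and TATAAA. The H3f3a window, at chr1:180813556-180813855 on the minus strand, holds 1 CCAAT box and 1 H1 box letter run, both on the reverse strand. GC content is 74.0% in the H3f3a window and 55.0% in the H3f3b window. Both windows lie inside the GENCODE spans given above, so the RefSeq starts differ from the outermost GENCODE starts.

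**Figure D3:**
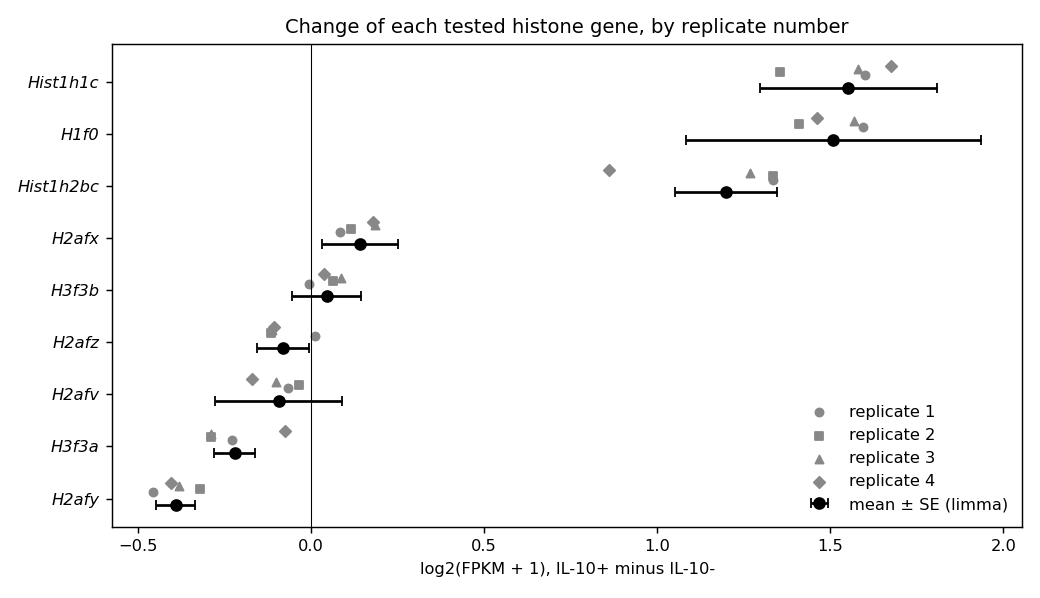
Log2 change of FPKM + 1 (IL-10+ minus IL-10-) for the 9 tested histone genes, with the mean and SE from limma in black and the difference within each replicate number in grey. Hist1h1c, H1f0 and Hist1h2bc lie between 1.20 and 1.55, and the other 6 genes lie between -0.39 and 0.14.

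Of the histone variants outside the set 3 were tested. Cenpa, the H3 variant of centromeres, rose to 34.8 ± 1.12 FPKM in IL-10+ cells, against 28.4 ± 1.26 FPKM in IL-10- cells (SD, n = 4; log2 change 0.29, limma adjusted p = 0.00961). H2afj, an H2A variant, fell to 6.24 ± 0.527 FPKM in IL-10+ cells, against 8.10 ± 0.807 FPKM in IL-10- cells (SD, n = 4; log2 change -0.33, limma adjusted p = 0.0274). The call for H2afj ended in 9 of 19 alternatives, 5 of them fits that leave out a library, and that for Cenpa ended in 1, within replicates 1 and 2. H3f3c did not pass.

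The genes that make, process and handle histones were described from 5 lists with 55 genes in all, of which 53 were tested. In IL-10+ cells 2 rose and 9 fell, against 10.6% and 9.18% of all tested genes called in these directions. Their median log2 change was -0.16, with 47 of 53 below 0, where 60.7% of all tested genes were below 0. Under both other scalings 42 of 53 were below 0, where 55.9% of all tested genes were below 0 with median-of-ratios scaling and 55.4% with the scaling that leaves out immunoglobulin and mitochondrial genes. With the replicate number as a block 3 rose and 36 fell, where 20.4% and 33.3% of all genes were called higher and lower.

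Histone gene transcription and end processing had 13 tested genes, of which 1 rose and 1 fell. Pou2f1, the octamer-binding factor Oct-1, rose to 4.91 ± 0.323 FPKM in IL-10+ cells, against 3.55 ± 0.373 FPKM in IL-10- cells (SD, n = 4; log2 change 0.38, limma adjusted p = 0.00966). Cpsf3, the nuclease that cuts messages before polyadenylation and behind the histone stem-loop, fell to 25.6 ± 1.83 FPKM in IL-10+ cells, against 31.8 ± 1.5 FPKM in IL-10- cells (log2 change -0.31, limma adjusted p = 0.0163). The Cpsf3 call ended with median-of-ratios scaling and within replicates 1 and 2, and the Pou2f1 call ended in the second of these. With the block 2 genes rose and 8 fell.

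Replication-coupled histone chaperones had 15 tested genes, of which 0 rose and 3 fell. Chaf1b, a subunit of chromatin assembly factor 1, fell to 11.1 ± 0.967 FPKM in IL-10+ cells, against 15.0 ± 1.55 FPKM in IL-10- cells (SD, n = 4; log2 change -0.40, limma adjusted p = 0.0165). Dnajc9, a co-chaperone of H3 and H4, fell to 69.1 ± 4.83 FPKM in IL-10+ cells, against 87.7 ± 5.63 FPKM in IL-10- cells (log2 change -0.34, limma adjusted p = 0.0143). Rbbp4, a histone-binding protein shared by several complexes, fell to 28.5 ± 1.55 FPKM in IL-10+ cells, against 33.8 ± 2.12 FPKM in IL-10- cells (log2 change -0.24, limma adjusted p = 0.047). The Rbbp4 call ended in 12 of 19 alternatives, 7 of them fits that leave out a library, and those of Chaf1b and Dnajc9 ended within replicates 1 and 2 alone. With the block 0 genes rose and 13 fell.

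The H3.3 deposition list had 6 tested genes. Ubn1, a subunit of the HIRA complex that deposits H3.3 in active chromatin, rose to 23.2 ± 1.12 FPKM in IL-10+ cells, against 19.4 ± 0.897 FPKM in IL-10- cells (SD, n = 4; log2 change 0.25, limma adjusted p = 0.0226). Daxx, the H3.3 chaperone that works with ATRX at repeats, fell to 38.8 ± 0.988 FPKM in IL-10+ cells, against 46.3 ± 1.91 FPKM in IL-10- cells (log2 change -0.25, limma adjusted p = 0.0172). The calls ended in 7 and 4 of 19 alternatives, with 6 and 2 of these being fits that leave out a library. With the block 1 gene rose and 2 fell.

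The H2A.Z exchange list had 11 tested genes, of which 0 rose and 1 fell. Vps72, an H2A.Z-binding subunit of the SRCAP and p400 complexes, fell to 14.5 ± 0.462 FPKM in IL-10+ cells, against 17.0 ± 0.412 FPKM in IL-10- cells (SD, n = 4; log2 change -0.22, limma adjusted p = 0.0208). Its call ended in 5 of 19 alternatives, 3 of them fits that leave out a library. The most abundant genes of the list were Anp32e, a chaperone that removes H2A.Z, at 110.6 and 119.5 FPKM in IL-10+ and IL-10- cells, and Ruvbl1, an ATPase of these complexes, at 76.5 FPKM in IL-10+ cells, against 75.5 FPKM in IL-10- cells. Neither passed the test. With the block 0 genes rose and 8 fell.

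The list of H2AX phosphorylation and its readers had 8 tested genes, of which 0 rose and 3 fell. Atm, the kinase that phosphorylates H2A.X at DNA breaks, had 16.1, 16.7, 14.9 and 17.2 FPKM in IL-10+ libraries 1 to 4, against 23.6, 23.9, 22.9 and 25.6 FPKM in IL-10- libraries 1 to 4. Groups did not overlap, and Atm fell (log2 change -0.54, limma adjusted p = 0.000635) in all 19 alternatives too. Trp53bp1, the 53BP1 repair protein that reads modified nucleosomes, fell to 3.90 ± 0.240 FPKM in IL-10+ cells, against 5.08 ± 0.249 FPKM in IL-10- cells (SD, n = 4; log2 change -0.31, limma adjusted p = 0.00889). Rnf168, the ubiquitin ligase that marks H2A there, fell to 7.86 ± 0.655 FPKM in IL-10+ cells, against 9.85 ± 1.01 FPKM in IL-10- cells (log2 change -0.29, limma adjusted p = 0.0425). The Rnf168 call ended in 12 of 19 alternatives, 7 of them fits that leave out a library, and that of Trp53bp1 ended within each replicate set alone. With the block 0 genes rose and 5 fell.

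**Figure D4:**
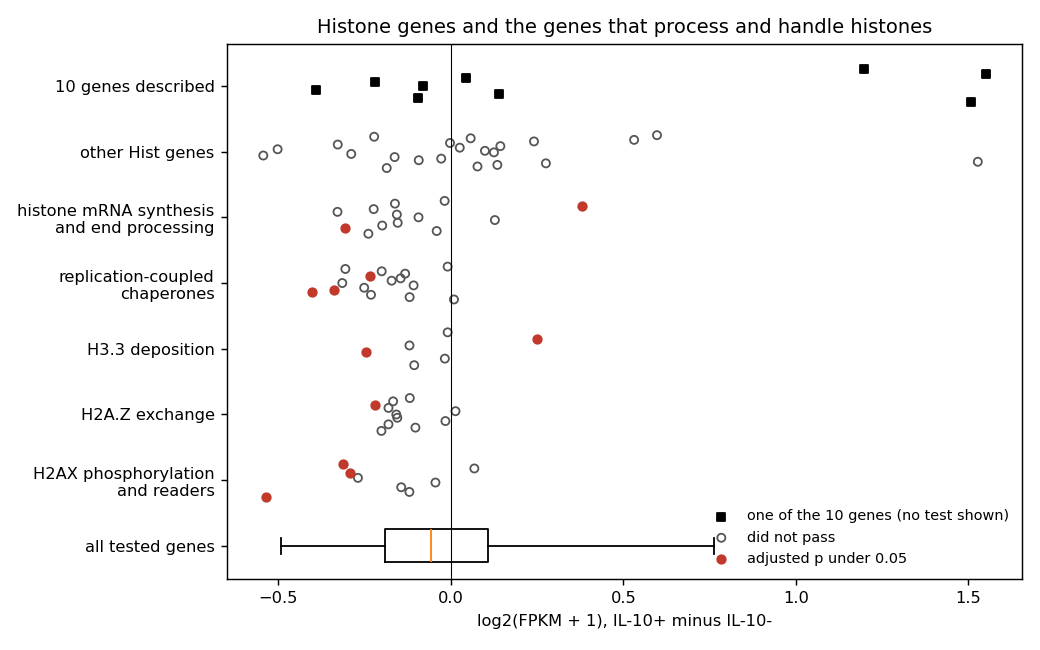
Log2 change of FPKM + 1 (IL-10+ minus IL-10-) of the 9 tested histone genes (black squares), the other Hist genes and the 5 lists of histone partners, with filled red points for an adjusted p under 0.05. The box gives the quartiles and median of all 11329 tested genes, and its whiskers the 5th and 95th percentiles. Most partner genes lie a little left of 0, while Hist1h1c, H1f0 and Hist1h2bc lie at 1.20 to 1.55.

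Genes of S phase and proliferation, given because histone messages follow the cell cycle, did not move one way. Of 10 tested, Mki67, the Ki-67 antigen of dividing cells, rose to 149.2 ± 2.91 FPKM in IL-10+ cells, against 108.8 ± 3.27 FPKM in IL-10- cells (SD, n = 4; log2 change 0.45, limma adjusted p = 0.000558). Tyms, thymidylate synthase, fell to 13.9 ± 0.323 FPKM in IL-10+ cells, against 17.9 ± 1.66 FPKM in IL-10- cells (log2 change -0.34, limma adjusted p = 0.0109). E2f1, a transcription factor of S phase entry, fell to 14.5 ± 1.18 FPKM in IL-10+ cells, against 20.5 ± 3.59 FPKM in IL-10- cells (log2 change -0.46, limma adjusted p = 0.0347). The E2f1 call ended in 10 of 19 alternatives, 7 of them fits that leave out a library. Summed over the list, levels were 875.1 to 1191 FPKM in IL-10+ libraries and 882.2 to 1193 FPKM in IL-10- libraries, so they overlapped. With the replicate number as a block 4 of the 10 rose (Mki67, Rrm2, Top2a and Ccna2) and 5 fell (E2f1, Tyms, Pcna, Mcm3 and Mcm5). In that fit 20.4% of all tested genes were called higher and 33.3% lower.

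All 6 tested plasmablast genes rose, and Prdm1, the plasma cell regulator Blimp-1, stood at 51.1 ± 1.61 FPKM in IL-10+ cells and at 6.89 ± 2.54 FPKM in the IL-10- group (SD, n = 4; log2 change 2.78, limma adjusted p = 5.03e-05). Of 5 B cell markers Ms4a1 (CD20) and Pax5, the regulator of B cell identity, fell, with log2 changes of -0.60 and -0.78 (limma adjusted p 0.000213 and 0.00209).

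The genes with patterns most like Hist1h1c and Hist1h2bc were found by the Euclidean distance between log2(FPKM + 1) values, each centred on its gene's mean, over the 8 libraries. For Hist1h1c they were Ackr3, a chemokine receptor that does not couple to G proteins, at 0.658, Rhob, a small GTPase, at 0.663, and Igkv4-71, a κ variable segment, at 0.676. Rhob had 36.2, 51.2, 28.9 and 25.1 FPKM in IL-10+ libraries 1 to 4, against 13.6, 19.7, 10.1 and 8.57 FPKM in IL-10- libraries 1 to 4, and so also peaked at replicate 2 in both groups. For Hist1h2bc they were Pim1, a survival kinase, at 0.381, Slc33a1, the acetyl-CoA transporter of the endoplasmic reticulum, at 0.386, and Derl1, a derlin of protein export from that organelle, at 0.386. The likeness is a description over 8 libraries that share groups and replicate numbers.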

How the data were processed

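Messenger RNA was measured in 4 IL-10+ and 4 IL-10- libraries, grouped by their titles. A treatment tag reads untreated, against the protocols in the labels, which were followed. The deposited FPKM values were made by the authors with HISAT2 2.1.0, HTSeq 0.6.0 and build mm10, per the submitters' processing notes. The sources used here do not give the annotation release, strand setting or handling of shared reads, so overlapping and near-identical genes are uncertain. GENCODE M21 of GRCm38 gave names for 26517 of 26589 identifiers.

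In each library 93.4% to 93.6% of FPKM above 0 gave whole reads within 0.05 for a single library total. For H1f0 they did not at its M21 length, so no reads are given for it. Values of Chaf1b, Daxx and Ubn1 also gave no whole reads in most libraries at their M21 lengths, so the levels of these genes are uncertain too. Libraries of a group were not near-copies (chi-square per degree of freedom 9.00 to 82.9). In IL-10+ and IL-10- cells the value was 9.00 and 9.50 between libraries 3 and 4, and 16.5 and 26.3 between 1 and 2. Pairs across these sets had 36.7 to 82.9, so the set difference was not confined to H1f0 and H2afv.

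The comparison used limma 3.58.1 (R 4.3.3) with a variance trend on log2(FPKM + 1). It took the 11329 genes that reached 1 FPKM in 4 or more libraries, and the call threshold was a Benjamini-Hochberg adjusted p of 0.05. The pseudocount understates changes of low genes. The fit was tested on simulated data, drawn independently for each library. The simulation thus lacked the pairing of replicate numbers described below and does not cover it. The 10 genes, the lists and the tests were chosen with earlier results of these data known. Outside the 10, up to 4 called genes per list with the largest change were named, or, with fewer than 2 calls, the 2 most abundant tested.

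Replicate numbers pair the samples. Deviations from group means correlated at 0.71, 0.58, 0.62 and 0.70 across genes between same-numbered libraries, each the highest for its number. This comes from the data, not the labels. Alternatives were other pseudocounts, filters and scalings, no variance trend, the replicate block, left-out libraries, and replicates 1 and 2 or 3 and 4 alone.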

Additional observations from a re-analysis of the deposited data

Results flagged for a closer look

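Of 36 groups of 4 libraries looked at, 1 held a library far from the rest. H3f3a had 29.8 FPKM in IL-10- library 4, against 32.5, 33.0 and 33.0 FPKM in IL-10- libraries 1 to 3, a gap of 0.832 of the group's range, just past Dixon's 95% critical value for 4 values. Chance flags about 1 in 20 groups.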

How the results depend on the processing

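No log2 change of a called histone gene turned its sign. Over all genes 1196 were higher and 1040 lower in IL-10+ cells, against 2312 and 3771 with the replicate block, 2537 and 3187 with the block and median-of-ratios scaling, and 786 and 320 within replicates 1 and 2. Leaving out a library gave 991 to 1168 higher and 607 to 954 lower. Of the 10 genes, 2 to 3 were higher and 1 to 2 lower with a library left out. The count lower was 1 with median-of-ratios scaling, with scaling that leaves out immunoglobulin and mitochondrial genes, and within replicates 3 and 4, and 0 within replicates 1 and 2. Other Hist genes called higher were 3 with the block, 3 with the block and scaling, 1 with no filter, 1 within each replicate set and 0 to 1 with a library left out. Those called lower were 3, 2, 1 (within replicates 3 and 4) and 0 to 1. Partner genes called higher were 1 at a filter of 5 FPKM, 0 within replicates 1 and 2, and 1 to 2 with a library left out, and those called lower were 36 with the block, 33 with the block and scaling, 1 within replicates 1 and 2, and 5 to 9 with a library left out. The cause of these shifts was not tested. Hist1h2bc had a log2 change of 1.41 at a pseudocount of 0.5 and 1.65 at 0.1, in place of 1.20. Of 170 log2 values of the 9 tested histone genes under alternatives, the last of these alone moved by more than 1 pooled SD between libraries of a group. At the depth of these libraries H1fx and 34 other Hist genes lay below the filter and were not tested.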
